A study of Mus musculus with 12 samples.

Results

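The small leucine-rich proteoglycans are a family of secreted matrix proteins, and 8 of their genes were followed in primary mouse oligodendrocytes (OLs) after interference with Egr2. The genes were taken by symbol from the deposited count table: Dcn, Bgn, Lum, Fmod, Ogn, Omd, Prelp and Aspn, which are 8 of 56860 named genes. All 8 passed the filter on low counts, as did 16600 genes in total. The OLs came from C57BL/6J mice: O4-positive cells were isolated with antibody-coated beads from the cortex of newborn pups, whose meninges and blood vessels had been taken off, and were differentiated in culture. The labels give the medial prefrontal cortex as the tissue. The siEgr2 group holds 6 libraries from cells harvested 48 h after interference with Egr2, and the siNC group 6 libraries from cells labelled as the control (NC). The study's methods name both an siRNA and a transfected plasmid as the agent against Egr2, and a scrambled siRNA as a control, so the agent behind these libraries is not settled. The labels do not say whether the libraries of a group came from separate cultures or animals, so the p-values measure the spread between these libraries.

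The proteins of this family share a core of leucine-rich repeats that binds collagen fibrils and sets their spacing and width, and most of them carry chondroitin, dermatan or keratan sulfate chains. Several also hold growth factors such as TGF-β in the matrix, and soluble biglycan is known as a ligand of Toll-like receptors on innate immune cells. In the brain the family is best known from the fibroblasts of the meninges and of large vessels rather than from OLs. By sequence, decorin (Dcn), biglycan (Bgn) and asporin (Aspn) form class I, lumican (Lum), fibromodulin (Fmod), Prelp and osteoadherin (Omd) form class II, and osteoglycin (Ogn, also called mimecan) belongs to class III.

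The libraries differed by more than the treatment. The siNC libraries held between 28682946 and 39383014 counts on genes and the siEgr2 libraries between 8034251 and 16683677, and 18S ribosomal RNA took 0.142% to 1.05% of the counts in siNC and 10.5% to 16.5% in siEgr2. Sequencing depth, ribosomal RNA share and treatment cannot be told apart in these libraries. The targeted gene Egr2 had 5.35 ± 1.27 CPM in siNC and 3.77 ± 1.01 CPM in siEgr2 (SD, n = 6 libraries each), which the quasi-likelihood model of edgeR put at -0.51 on the log2 scale (adjusted p = 0.0981), and the groups overlapped. CPM stands for the count of a gene scaled to a common library size with TMM factors. Of the defining genes of mature OLs, 11 of 11 were measured, with a summed level of 8289 to 9459 CPM per siNC library. The 10 astrocyte markers reached 8484 to 9188 CPM in the same libraries, so markers of both cell types were present.

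The 8 genes lie on 4 chromosomes of the mouse genome build mm10 (GRCm38), in 3 clusters and 1 single locus. Prelp (ENSMUSG00000041577, chr1:133910304-133921414, minus strand) and Fmod (ENSMUSG00000041559, chr1:134037254-134048277, plus strand) point away from each other across a gap of 115.8 kb, and Optc, another family gene, follows 2.3 kb beyond Prelp. Dcn (chr10:97479609-97518143) and Lum (chr10:97565128-97572703) are 47.0 kb apart on the plus strand, with Kera and Epyc downstream. Aspn (chr13:49544443-49567565), Omd (chr13:49582462-49592822) and Ogn (chr13:49608046-49624501) follow each other on the plus strand after Ecm2, with gaps of 14.9 kb and 15.2 kb. All 3 lie inside Cenpp, a centromere gene read from the opposite strand, whose exons share at most 7 bp with those of Aspn and none with those of Omd or Ogn. Bgn stands alone on the X chromosome (chrX:73483602-73495933). The 3′ part of Prelp overlaps the antisense gene Gm15851 by an exon stretch of 350 bp. Whether the counting used strand is not given in the sources used here, so reads there cannot be assigned to either gene with certainty. Gm15851 had 0.534 CPM in siNC and 0.461 CPM in siEgr2, far under the Prelp level.

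RefSeq start sites with sequence on GRCm38.p6 were at hand for 6 of the genes, and the entries for Dcn and Lum were missing. These starts do not all match the gene coordinates given above. The RefSeq start of Ogn lies upstream of the gene as given there, and that of Prelp lies inside it. The 250 bases before the start of Fmod and Prelp are shown because these neighbours had the lowest adjusted p of the 8, those of Bgn because it had the highest level of them, and those of Ogn because its group means were closest. They are Fmod at chr1:134037004-134037253 (plus strand), Prelp at chr1:133921402-133921651 (minus strand), Bgn at chrX:73483351-73483600 (plus strand) and Ogn at chr13:49607765-49608014 (plus strand), each read 5′ to 3′ toward the gene, with capitals for the letters of a GC box (GGGCGG) or a TATA box (TATAAA) on either strand.
Fmod: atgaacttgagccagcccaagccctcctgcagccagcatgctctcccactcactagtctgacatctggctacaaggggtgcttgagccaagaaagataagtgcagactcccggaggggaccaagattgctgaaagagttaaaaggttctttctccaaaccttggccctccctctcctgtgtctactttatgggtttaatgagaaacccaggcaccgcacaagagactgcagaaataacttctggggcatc
Prelp: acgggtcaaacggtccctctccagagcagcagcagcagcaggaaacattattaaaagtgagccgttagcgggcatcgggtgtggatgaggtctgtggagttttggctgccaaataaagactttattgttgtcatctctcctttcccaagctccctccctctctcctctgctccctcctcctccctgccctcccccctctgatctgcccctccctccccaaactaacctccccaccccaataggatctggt
Bgn: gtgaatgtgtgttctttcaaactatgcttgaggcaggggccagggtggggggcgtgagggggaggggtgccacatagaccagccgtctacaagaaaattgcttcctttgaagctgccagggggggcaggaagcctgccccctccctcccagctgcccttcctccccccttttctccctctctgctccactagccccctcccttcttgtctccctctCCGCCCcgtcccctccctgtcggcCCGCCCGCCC
Ogn: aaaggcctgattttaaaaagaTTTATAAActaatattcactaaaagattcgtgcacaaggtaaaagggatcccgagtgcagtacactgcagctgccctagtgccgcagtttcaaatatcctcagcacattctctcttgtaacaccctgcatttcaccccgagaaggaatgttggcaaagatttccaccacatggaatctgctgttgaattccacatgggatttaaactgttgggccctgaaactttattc

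These stretches differed in base composition. The GC content was 51.2% before Fmod, 55.6% before Prelp, 64.4% before Bgn and 42.0% before Ogn, and it was 38.4% before Omd and 30.0% before Aspn, where the median over all RefSeq windows was 52.4%. The letters of the EGR binding motif (GCGNGGGCG, both strands) were in 0 of the 6 windows, which run from 250 bases before to 50 after the start, against 5.55% of 32851 windows of all genes. The GC box was in 1 of 6 windows, that of Bgn, where it was found at 3 places, 2 of them overlapping, against 35.7% of all windows. The TATA box letters were in the windows of Aspn and Ogn, against 13.6% of all windows, and every match began 178 or more bases before the start. The EGR and GC box motifs can overlap each other. A missing match says only that these letters are not in this window.

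Between siEgr2 and siNC, Fmod was the only gene of the 8 that met both thresholds for a call, a change of more than 0.5 on the log2 scale and edgeR's adjusted p below 0.05, and it was lower. Dcn and Prelp were lower at the adjusted p alone, with changes short of the fold threshold. Bgn, Lum, Ogn, Omd and Aspn did not pass the test, and 0 of 8 genes were called higher. Over all 16600 tested genes, 5.08% were called lower and 2.63% called higher, and 19.9% passed the adjusted p alone, which 3 of the 8 genes did. The median log2 fold change was -0.16 over the 8 genes and 0.0046 over all tested genes. The libraries of the 2 groups were fully apart, in either direction, for 0 of the 8 genes and for 11.2% of all tested genes. A level in these bulk samples cannot tell fewer cells of a type from less RNA per cell.

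**Figure D1:**
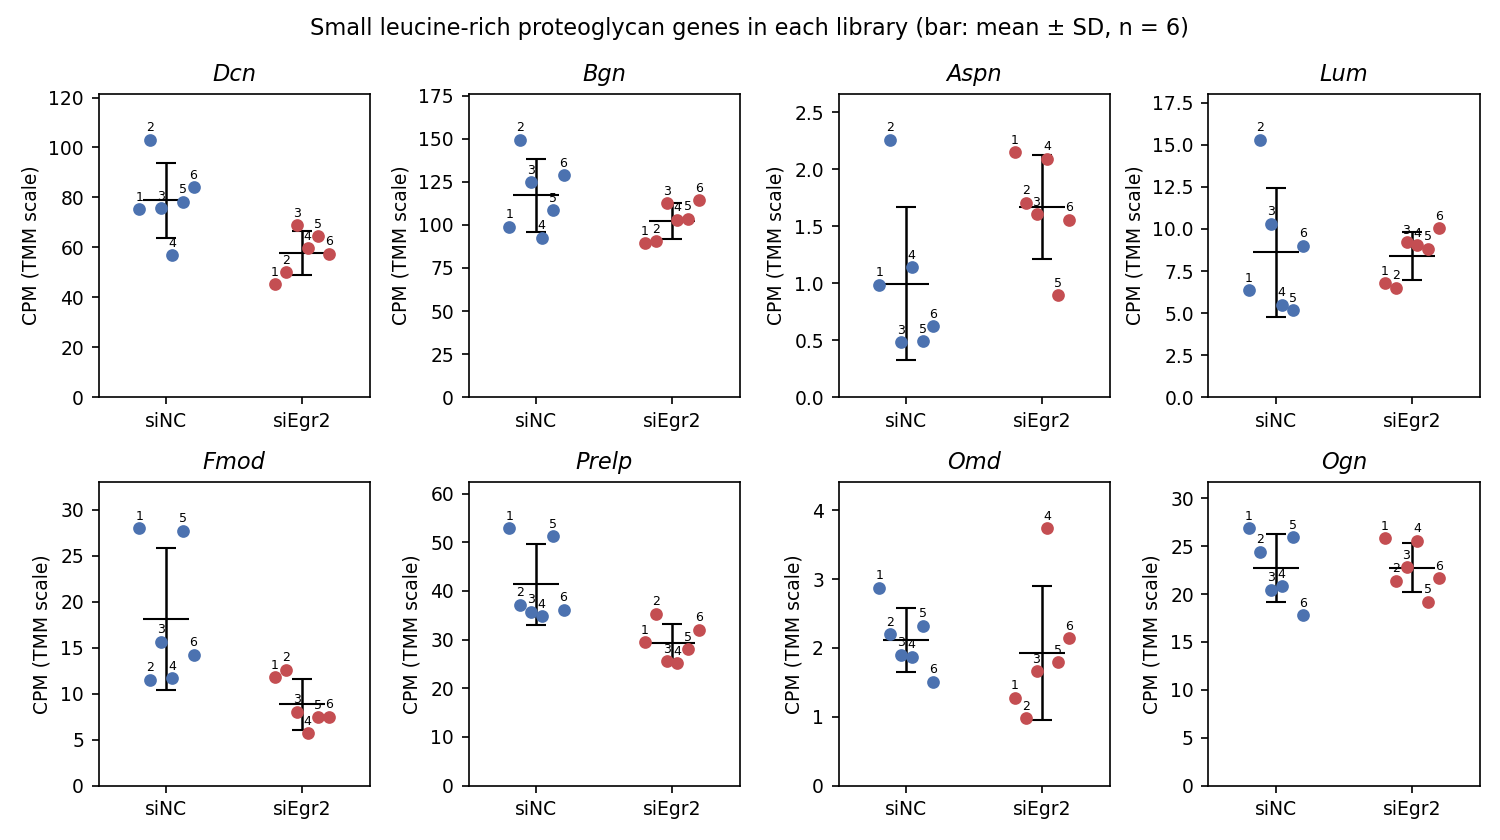
Level of each of the 8 genes in every library, in CPM on the TMM scale, with 1 point per library labelled by its replicate number and the bar giving the mean ± SD of 6 libraries. The groups overlap in every panel, and the siNC libraries of replicates 1 and 5 stand above the other siNC libraries for Fmod and Prelp.

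Fibromodulin, which binds fibrillar collagen and carries keratan sulfate, gave the largest fall. Fmod had 27.99, 11.5, 15.7, 11.7, 27.7 and 14.2 CPM in siNC replicates 1 to 6, and 11.8, 12.6, 8.03, 5.68, 7.43 and 7.51 CPM in the siEgr2 replicates. The siNC libraries of replicates 1 and 5 stood well above the others, and the siEgr2 libraries of replicates 1 and 2 reached into the range of the lower siNC libraries, so the groups overlapped. The mean fell by 51.2%, from 18.1 ± 7.69 to 8.85 ± 2.74 CPM (SD, n = 6 libraries each). Fitted with edgeR, the change was -1.03 ± 0.288 on the log2 scale (standard error), at an adjusted p of 0.0253, and the two-sided exact permutation test over the libraries gave p = 0.0130. With limma-voom in place of edgeR the adjusted p was 0.112, and it was between 0.0540 and 0.0557 in the edgeR fits without siEgr2 replicate 3, 4, 5 or 6, which end the call. Without siNC replicate 1 or 5 the fold change was -0.86 or -0.87, and the call stayed.

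Prelp, named for its proline and arginine-rich end and known to bind heparan sulfate, showed a smaller difference that depended less on single libraries. Its level ran from 34.8 to 52.9 CPM in siNC, with a median of 36.7, and from 25.2 to 35.3 CPM in siEgr2, with a median of 28.7. Only the siEgr2 library of replicate 2 reached the siNC range, and the siNC libraries of replicates 1 and 5 were again the highest. The mean was 41.3 ± 8.36 CPM in siNC and 29.3 ± 3.92 CPM in siEgr2 (SD, n = 6), which is 29.2% less. The fitted change was -0.499 ± 0.124 on the log2 scale (standard error), just short of the fold threshold, and edgeR gave 0.0102 as the adjusted p. The adjusted p stayed under 0.05 in all 22 alternative fits, and in 10 of them the fold change passed the threshold as well.

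Decorin, which binds collagen and TGF-β, was the second most abundant of the 8 genes per length. Dcn had 56.9 to 103 CPM in siNC, with a median of 77.0, and 45.2 to 68.9 CPM in siEgr2, with a median of 58.7. The siNC library of replicate 4 was the only one within the siEgr2 range, and that of replicate 2 was the highest. The mean was 26.9% lower in siEgr2, at 57.7 ± 8.83 against 78.9 ± 14.97 CPM (SD, n = 6), and the fitted change was -0.45 ± 0.134 on the log2 scale (standard error), for which edgeR gave 0.0304 as the adjusted p. This adjusted p was less firm than that of Prelp, since it was 0.05 or over in 8 of 22 alternative fits, among them the replicate block (0.0764) and limma-voom (0.0576). In 4 others Dcn was called, for example when siNC replicate 4 was left out (-0.53) or siEgr2 replicate 3 (-0.52).

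**Figure D2:**
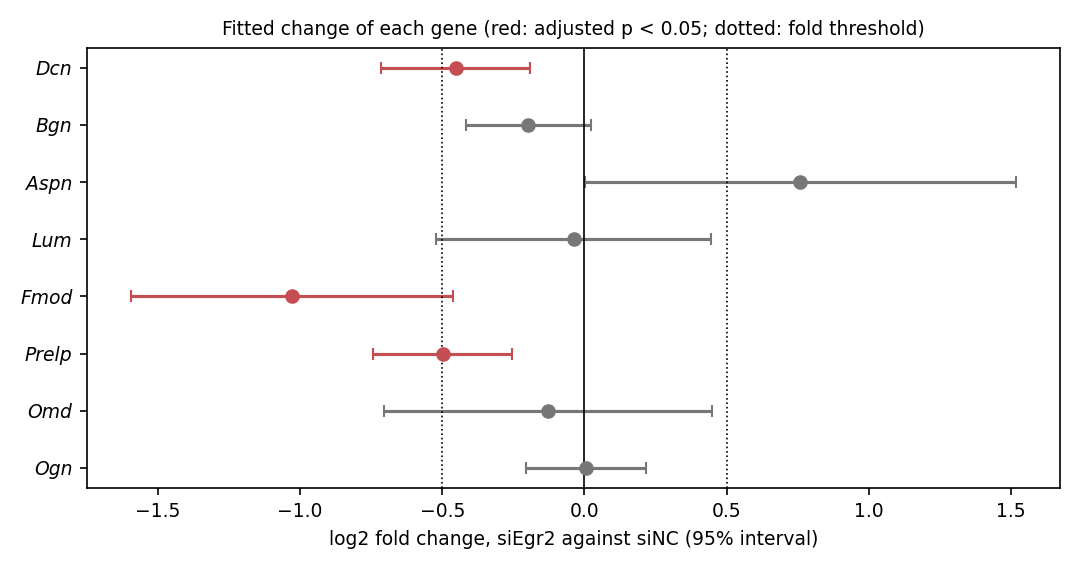
Fitted log2 fold change of siEgr2 against siNC for each gene (point) with its 95% interval (line), red where the adjusted p was under 0.05. Fmod lies at -1.03 beyond the dotted threshold of 0.5, Prelp and Dcn lie at it or just inside, and the interval of Ogn is the narrowest around 0. The intervals assume a normal error, and that of Aspn leaves out 0 although its unadjusted p in edgeR was 0.0674.

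Biglycan, the closest relative of decorin and a ligand of Toll-like receptors when soluble, did not pass the test. Bgn had 92.5 to 149 CPM in siNC, with a median of 117, and 89.3 to 114 CPM in siEgr2, with a median of 103. The siEgr2 libraries lay within the lower part of the siNC range, apart from replicates 1 and 2, which were below it. The fitted change was -0.20, with a 95% interval of -0.42 to 0.022 (adjusted p = 0.252, edgeR), so a fall of the size fitted for Dcn was outside this interval and a smaller one was not.

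Osteoglycin showed the least difference. Ogn had 17.8 to 26.9 CPM in siNC and 19.2 to 25.8 CPM in siEgr2, with medians of 22.6 and 22.2. The groups covered the same range, with a log2 fold change of 0.0056 and an interval of -0.20 to 0.22 (adjusted p = 0.981, edgeR). With 150 to 384 counts per siEgr2 library, the interval left out a change of the size fitted for Prelp.

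Lumican, which like fibromodulin regulates fibril width, was the most uneven of the moderately abundant genes in the controls. Lum had 5.17 to 15.3 CPM in siNC, with a median of 7.68, and 6.51 to 10.04 CPM in siEgr2, with a median of 8.94. All siEgr2 libraries lay within the siNC range, and the siNC library of replicate 2 was the highest. The log2 fold change was -0.038 with an interval of -0.52 to 0.45 (adjusted p = 0.939, edgeR), and its sign turned in 7 of 22 alternative fits.

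Osteoadherin and asporin were at the lower end. Omd, known from mineralized tissue, had 12 to 50 counts per siEgr2 library, with 1.51 to 2.88 CPM in siNC and 0.977 to 3.74 CPM in siEgr2. The siEgr2 libraries spanned more than the siNC range on both sides, and the log2 fold change was -0.13 with an interval of -0.70 to 0.45. Aspn, a decorin relative that carries no such sugar chain, had 7 to 32 counts per siEgr2 library and 15 to 74 per siNC library. Its level was 0.483 to 2.26 CPM in siNC, with a median of 0.805, and 0.896 to 2.15 CPM in siEgr2, with a median of 1.66. The siNC library of replicate 2 was the highest of all 12, and 3 siNC libraries were below every siEgr2 library. For Aspn the fitted change was 0.76 ± 0.386 (standard error), with 0.193 as edgeR's adjusted p and 0.0563 as the two-sided exact permutation p. When siNC replicate 2 was left out it was 1.17 (edgeR, adjusted p = 0.0238), and with every library thinned to 8034251 counts it was 0.26, so the size of the difference was not firm.

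Whether the genes changed by different amounts was tested within libraries, where a ratio of 2 genes does not depend on the scaling. Of the 28 pairs, 0 passed an adjusted p of 0.05 in the two-sided exact permutation test and 12 had an unadjusted p under 0.05, 6 of which included Aspn. The smallest p this test can give is 0.00216, so a single pair could not pass alone after adjustment over 28 pairs. A count of 0 thus does not show that the genes changed alike. The lowest p was that of Ogn against Prelp: the log2 ratio of their counts was -0.85 ± 0.17 in siNC and -0.36 ± 0.29 in siEgr2 (SD, n = 6, exact permutation p = 0.00433, adjusted 0.0606). The log2 ratio of Dcn to Bgn went from -0.57 ± 0.13 to -0.83 ± 0.13 (exact permutation p = 0.0108, adjusted 0.0606). The neighbours Fmod and Prelp differed by -0.50 in their log2 ratio (exact permutation p = 0.0346, adjusted 0.0970). Without siNC replicate 2, the library with the highest Dcn, Bgn, Lum and Aspn, 11 pairs passed.

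The levels were compared between genes per kilobase of annotated exon. In siNC they spanned 45.4-fold, from 19.2 ± 3.48 CPM per kb for Bgn to 0.424 ± 0.287 CPM per kb for Aspn (SD, n = 6). Between these came Dcn (13.5 ± 2.56), Prelp (11.4 ± 2.31), Ogn (8.86 ± 1.38), Fmod (5.49 ± 2.33), Lum (3.52 ± 1.58) and Omd (0.940 ± 0.209 CPM per kb). The ranges of neighbours in this order overlapped, except those of Lum and Omd. Within single libraries, Bgn was above Dcn in 6 of 6 siNC and 6 of 6 siEgr2 libraries, whereas Dcn was above Prelp in 4 of 6 in each group. In siEgr2 the mean of Ogn came before that of Prelp, at 8.86 against 8.10 CPM per kb, and the mean of Lum before that of Fmod, at 3.43 ± 0.581 against 2.68 ± 0.830 CPM per kb. Prelp was above Ogn in 6 of 6 siNC libraries and in 3 of 6 siEgr2 libraries. Fmod was above Lum in 5 of 6 siNC libraries and in 2 of 6 siEgr2 libraries.

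**Figure D3:**
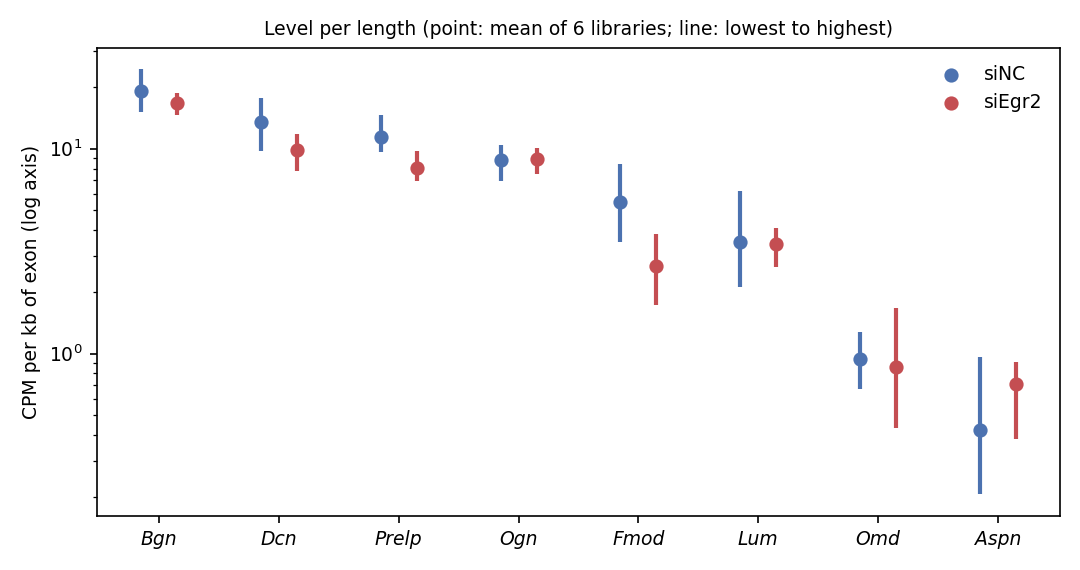
Level of each gene per kilobase of exon on a log axis, with the mean (point) and the lowest to highest library (line) of 6 siNC and 6 siEgr2 libraries. The genes are ordered by the siNC mean, from Bgn at 19.2 to Aspn at 0.424 CPM per kb. In siEgr2 the mean of Ogn lies above that of Prelp, and the mean of Lum above that of Fmod.

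Within each group the libraries did not rank the genes alike. In siNC replicate 2, Dcn, Bgn, Lum and Aspn stood 0.41, 0.37, 0.89 and 0.98 above their group means of log2(CPM + 0.5), while Fmod stood at -0.53 and Prelp at -0.13. In siNC replicates 1 and 5 Fmod and Prelp were high and Lum was low, with Fmod at 0.71 and 0.70, Prelp at 0.37 and 0.33, and Lum at -0.31 and -0.59. A like split appeared in siEgr2, where replicates 1 and 2 had Dcn, Bgn and Lum below and Fmod and Prelp above the group mean. Dcn, Bgn and Lum thus had the same highest siNC library, and Fmod and Prelp the same pair of highest siNC libraries. The 12 values per gene are a description, and no test was run on them.

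**Figure D4:**
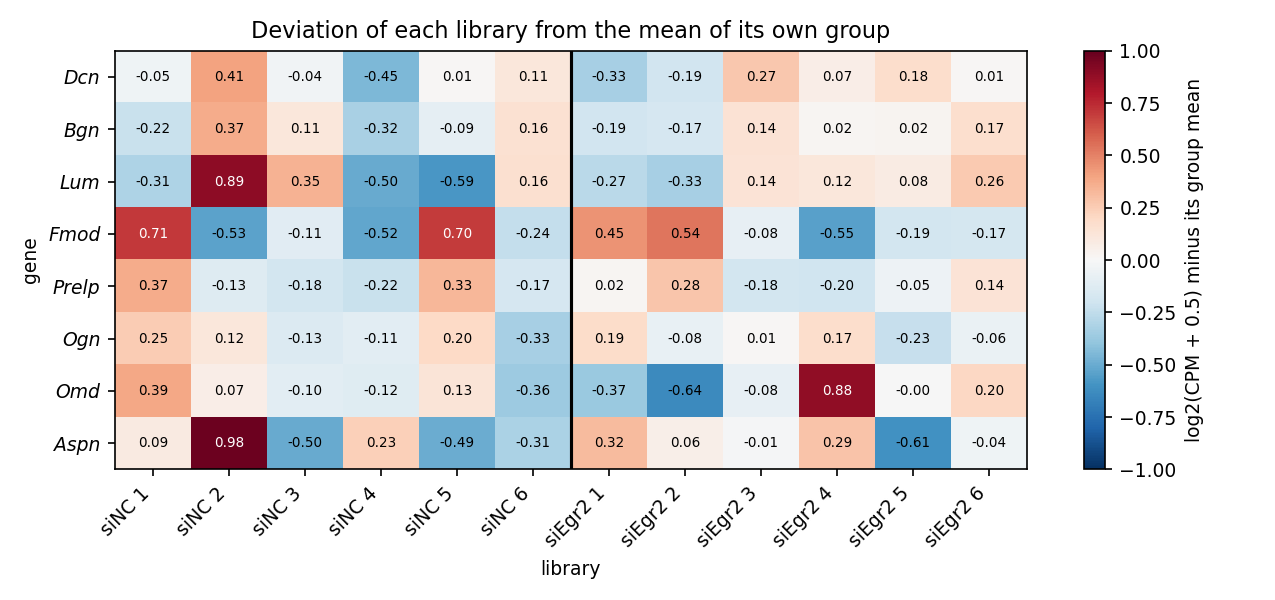
Difference of each library from the mean of its own group, in log2(CPM + 0.5), for the 8 genes (rows) and 12 libraries (columns). Dcn, Bgn and Lum are high together in siNC 2 and low together in siNC 4 and siEgr2 1 and 2, and Fmod and Prelp are high together in siNC 1 and 5 and siEgr2 2.

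The genes whose profile over the 12 libraries was most like that of Bgn, the gene with the highest mean CPM of the 8, were searched among all tested genes by the root mean square difference of centred log2(CPM + 0.5). They were Cemip (0.0771), which takes part in hyaluronan breakdown, the fibrillar collagens Col3a1 (0.0916) and Col1a1 (0.0931), the ephrin Efnb1 (0.104) and the collagen receptor Mrc2 (0.109). None of these 5 was called in siEgr2. The distance takes in the difference between the groups, so the search itself favours genes with a fold change like that of Bgn. Dcn came at rank 205 in the same order, with a difference of 0.176, and Fmod at rank 15947.

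Markers of the cells that make these proteins in the brain were present. Of 15 fibroblast markers, 14 were tested, 4 were called lower and 0 higher, and their median log2 fold change was -0.25. The called ones were Slc6a13 (-1.14), Islr (-0.80), Igf2 (-0.63) and Pdgfrb (-0.56), while Col1a1 (-0.16) and Col1a2 (-0.27), the most abundant of them, were not called. Their summed level was 1005 to 1656 CPM in siNC and 973 to 1244 CPM in siEgr2. It was highest in siNC replicate 2 and lowest, among the siNC libraries, in replicate 4, as were Dcn and Bgn. Col1a1, Col1a2 and Col3a1 weigh most in this sum, at 336, 308 and 286 CPM in siNC. Since Col3a1 and Col1a1 were also found by their likeness to Bgn, this order is not separate evidence. Among 10 pericyte markers, 5 were tested and all 5 were called lower, with sums of 242 to 274 CPM in siNC and 138 to 183 CPM in siEgr2. Tagln (121 CPM in siNC) and Acta2 (94.1 CPM) were the most abundant of them. Of those not tested, Higd1b had no count in any library. The means of the others in siNC and siEgr2 were 0.226 and 0.259 CPM for Kcnj8 and 0.101 and 0.246 CPM for Abcc9. They were 0.120 and 0.135 CPM for Ndufa4l2 and 0.472 and 0.465 CPM for Myh11. Of the 10 astrocyte markers, 6 were called lower, among them Slc1a3 (-0.85) and Aqp4 (-0.80), and the sum was 5374 to 6112 CPM in siEgr2. Of 10 markers of precursors, 2 were called higher, Pdgfra (0.56) and Cspg4 (0.56). With these 2 counted, 8 of the 10 had an adjusted p under 0.05 in edgeR, all higher. The precursor sums were 5480 to 5833 CPM in siNC and 6760 to 6908 CPM in siEgr2. Of the OL markers 0 of 11 were called at these thresholds, with 4 at the adjusted p alone, all lower, and their sum in siEgr2 was 7787 to 8135 CPM, below every siNC library. Endothelial markers (1 of 4 tested called lower, Flt1, with Cldn5 at 0 counts) and microglia markers (0 of 3 tested called, Aif1 and Itgam at 0 counts) were sparse, and 1 of 8 tested neuron markers was called lower. The part of these cell types in the levels of Dcn, Prelp and Fmod was not tested.

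Other genes of the pathway were taken from fixed lists. Of 10 further family genes, 5 passed the filter and 0 were called, and 0 of them had an adjusted p under 0.05 in edgeR. The most abundant were Chadl (44.3 ± 3.24 CPM in siNC and 42.5 ± 2.90 CPM in siEgr2) and Tsku, a Wnt and TGF-β modulator (10.5 ± 2.58 and 10.5 ± 4.66 CPM). Kera, Chad and Podnl1 had 0 counts in all 12 libraries, and Epyc, the neighbour of Kera, had 0 to 25 counts. Of 11 fibrillar collagen genes, the partners that the family binds, 10 were tested, 3 were called lower and 0 higher. These were Col2a1 (log2 fold change -1.38), Col5a3 (-0.85) and Col5a2 (-0.55). Col2a1 had only 4 to 17 counts per siEgr2 library, and its groups overlapped. Col11a1, the most abundant, was higher at 2125 ± 81.7 against 1758 ± 44.6 CPM without reaching the fold threshold (0.27).

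The enzymes that build the sugar chains were measured for 27 of 30 genes. Chst7, a chondroitin 6-O-sulfotransferase, was the only one called and fell by 0.60 on the log2 scale, from 17.9 ± 1.196 to 11.9 ± 1.72 CPM. A further 5 passed the adjusted p alone. Among these, Chst2, a sulfotransferase of keratan sulfate-like chains, was lower (379 ± 33.4 to 287 ± 12.3 CPM, log2 fold change -0.40), and Xylt1, which starts the chain on the core protein and is named here after its values were seen, was higher (198 ± 12.4 to 268 ± 24.9 CPM, 0.44), both with no overlap between the groups. Chst11 was higher by 0.17. The median of the list was -0.12.

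Of the proteases known to cleave members of the family or other matrix proteins, 6 of 12 tested genes were called lower and 0 higher, with a median log2 fold change of -0.49. Mmp3 fell from 125 ± 31.9 to 35.1 ± 3.53 CPM (-1.84) and Mmp13 from 15.8 ± 4.43 to 5.09 ± 1.37 CPM (-1.64). Tll1 (-0.80, with 8 to 43 counts per siEgr2 library) and Mmp14 (-0.75) were called as well. Adamts5 and Htra1 were the others. Bmp1, which trims the propeptides of biglycan and of procollagens, and Adamts1 were the most abundant, at -0.16 and -0.10, neither of them called. Of 25 ligands, receptors and binding partners, 24 were tested, 9 were called lower and 0 higher, with a median of -0.43. Toll-like receptor 2 (Tlr2, -1.85) and its co-receptor Cd14 (-1.32), which recognize biglycan, the matricellular protein Ccn4 (-1.04) and Egfr (-0.82), to which decorin binds, had the largest changes. Counts per siEgr2 library were low for Tlr2 (14 to 38), Cd14 (17 to 50) and Ccn4 (19 to 73). The uptake receptor Lrp1 (-0.28) and the integrin chain Itgb1 (-0.12) were the most abundant and were not called. Mmp3 among the proteases, Tgfb1, Tgfb2 and Tnf among the ligands, Gfap among the astrocyte markers and Pdgfra among the precursor markers belong to the genes that the study picked from these libraries, so the counts of these lists are not independent evidence of a direction.

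**Figure D5:**
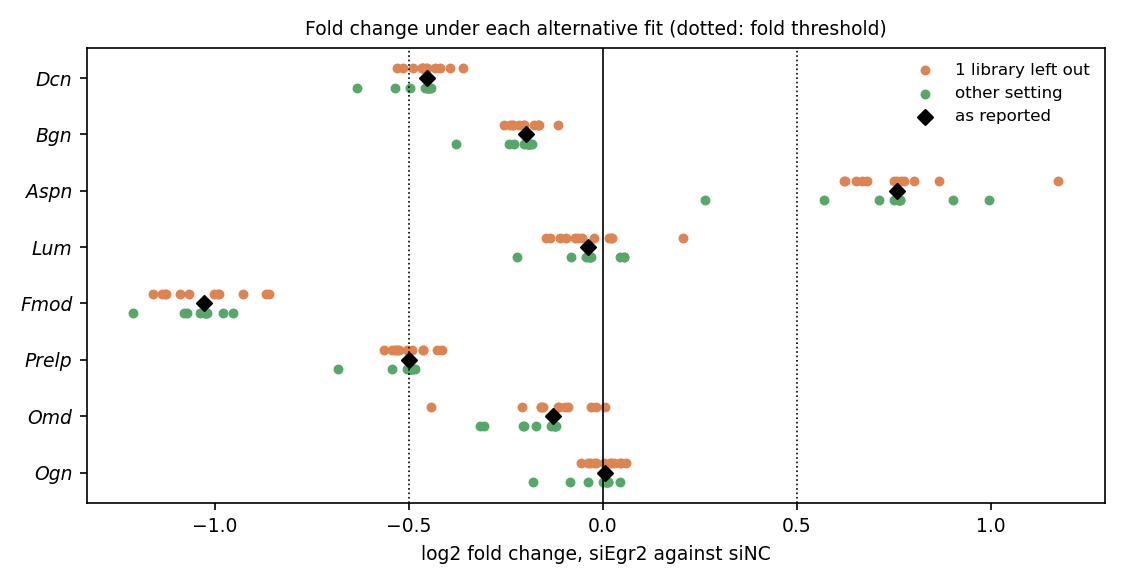
Log2 fold change of each gene as reported (diamond), with 1 library left out in turn (orange) and under the other alternative fits (green), with dotted lines at the fold threshold of 0.5. Fmod keeps its sign and lies beyond the threshold throughout, Prelp and Dcn fall on both sides of it, Lum, Ogn and, with 1 library left out, Omd change sign, and Aspn runs from 0.26 to 1.17.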

How the data were processed

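RNA-seq libraries of differentiated primary OLs (6 siNC, 6 siEgr2) were grouped and numbered by their titles. The authors extracted total RNA with TRIzol, made Illumina libraries and deposited raw counts per gene symbol, without normalization. The submitters' processing notes name the build mm10, and the aligner and the counting program are not given in the sources used here. A row without a gene name (1, with 0 counts) was left out. Counts were analyzed with R 4.3.3, edgeR 4.0.16 (filterByExpr, TMM, robust quasi-likelihood test without covariates, Benjamini-Hochberg adjustment over the genes tested) and limma 3.58.1. The thresholds (0.05 for the adjusted p, 0.5 for the log2 fold change) are those of the study's methods, in both directions. Standard errors came from the fold change and its F statistic, and 95% intervals assume a normal error. They are therefore narrower than the edgeR test implies. That of Aspn ran from 0.0010 to 1.52 and left out 0, while its unadjusted p in edgeR was 0.0674. Single levels and ratios of member pairs (with 0.5 counts added) were compared by two-sided exact permutation tests over 924 assignments, of which the smallest p is 0.00216. Members and lists were chosen with earlier results of these data known. Genes are named as list members with the largest changes among those called (up to 4) or the highest mean CPM (2), or by likeness to Bgn. Coordinates and exon lengths are from GENCODE M21 and start-site sequences from RefSeq.

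On simulated counts for 16336 genes, 191 of 200 changed genes were recovered (95.5%) and 5 calls were false. The rate of missed or false calls in the measured libraries was not tested. No library was a copy of another (chi-square per gene of 7.56 or more over 30 pairs within groups). The alternatives were RLE, upper-quartile and no scaling factors, no filter and a CPM of at least 1 in 6 libraries, DESeq2 1.42.0, limma-voom, a replicate block, thinning to the smallest library, removal of structural RNA genes, other thresholds and pseudocounts, and each library left out in turn. The fewest counts per library were those of Omd (12 in siEgr2) and Aspn (7 in siEgr2, 15 in siNC).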

Additional observations from a re-analysis of the deposited data

Results flagged for a closer look

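The level of Aspn in siNC replicate 2 was 2.26 CPM, from 74 counts, while the remaining controls held 0.483 to 1.14 CPM, a gap of 0.63 of the whole range. Of 16 groups of 6 values examined for a single library that stands apart, this was the only one on the linear CPM scale, and chance alone gives 0.8. On the scale of log2(CPM + 0.5), computed after the values were seen, the gap was 0.50 of the range and 0 of the 16 groups held such a library. The same library had the highest Dcn, Bgn and Lum and the highest summed fibroblast markers of the siNC group. In that sum the collagens Col1a1, Col1a2 and Col3a1 weigh most. Why this library differs was not tested.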

How the results depend on the processing

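The number of the 8 genes called lower, 1 as reported, was 3 with library size only, 2 without a filter on low counts, 2 with DESeq2, 2 after thinning, 0 with limma-voom and 3 with no fold change required, and it ran from 0 to 3 when single libraries were left out. The number called higher, 0 as reported, ran from 0 to 1 over the latter, with Aspn called without siNC replicate 2. The pairs of genes whose ratio passed the adjusted p ran from 0 to 11 over the same omissions, with 11 without siNC replicate 2, and were 0 in all other settings. Library size only moved the median change over all tested genes from 0.0046 to -0.18 on the log2 scale and the share of called genes that fell from 65.9% to 88.0%. Ogn (-0.18) then changed sign with that shift, and the sign of Ogn also turned without a filter (-0.038) and after thinning (-0.085). Lum was positive with limma-voom (0.045), after thinning (0.054) and with the replicate block (0.055). Over the omissions of 1 library, Lum ran from -0.15 to 0.21, Ogn from -0.055 to 0.060 and Omd from -0.44 to 0.0058. None of these values passed the test, and the cause was not tested. Same-numbered libraries of the 2 groups did not deviate together, with correlations of -0.039 to 0.042 across genes and 2 of 6 numbers best matched to their own. With the replicate block, 1 gene was called lower, 0 higher and 0 pairs passed, as in the fit without it. Of the lists, library size only called 4 chain-building enzymes lower in place of 1, 14 ligands and receptors in place of 9 and 0 precursor markers higher in place of 2. It also called 9 astrocyte markers lower in place of 6. Chain-building enzymes and endothelial markers each reached 2 called lower, in place of 1, when single libraries were left out, and 3 precursor markers were called higher by DESeq2. With a log2 fold change of over 1 required, 1 of the 8 genes was still called lower, while the lists fell from 6 to 0 for astrocyte markers, 5 to 0 for pericyte markers, 6 to 2 for proteases, 9 to 3 for ligands and receptors, 4 to 1 for fibroblast markers, 3 to 1 for collagens, and 1 to 0 for chain-building enzymes and for neuron markers, and the precursor markers called higher from 2 to 0. Optc, whose counts ran from 6 to 51 in siNC and from 2 to 10 in siEgr2, had a 95% interval of -1.04 to 0.88, and the part of depth in its width was not tested.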

Other observations

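The same search for like profiles, run for the other family genes after their values were seen, gave these nearest genes for the 3 with an adjusted p under 0.05. Dcn was closest to Nid1, a basement membrane nidogen (root mean square difference 0.101), which was called lower at a log2 fold change of -0.53, followed by Itih2 (0.106) and Serpinb9 (0.109), which were not called. Prelp was closest to Gas6, a ligand of TAM receptors (0.136), and to Foxj1, the regulator of motile cilia (0.153), with log2 fold changes of -0.47 and -0.48, under the fold threshold, and then to Ndrg1 (0.156), which was not called. Fmod was closest to Ace, the angiotensin-converting enzyme (0.289), and to the cell adhesion gene Cntnap2 (0.318), of which Cntnap2 was called lower (-1.04) and Ace, at -1.14, was not, nor was Arhgef16 (0.325). The distances of Fmod are larger than those of Dcn and Prelp, and the 12 libraries are the same ones in which the genes were described. Here too the distance takes in the difference between the groups, so like fold changes are favoured by the search.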
